A study of Mus musculus with 10 samples.

Results

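The genes described here encode mitochondrial ribosomal proteins, chosen by symbol: every mouse gene whose symbol is Mrpl or Mrps followed by a number, measured by a probe set that the platform annotation pairs with 1 gene symbol. That gave 77 genes of the 19938 genes with such a probe set, and 0 pseudogenes had to be left out. Where a gene had several such probe sets (8 genes), the one with the highest mean over all arrays was used. Whole brains of male C57BL/6J mice were measured at postnatal day 70, in 2 independent experiments. The mice were the offspring of dams that drank 10% ethanol in water (ethanol arrays) or water alone (control arrays) while mated, pregnant and nursing, up to postnatal day 10 of the pups. Each array of experiment 1 held RNA pooled from 3 mice (2 ethanol and 2 control arrays), and each array of experiment 2 held RNA pooled from 2 mice (3 ethanol and 3 control arrays). All groups are of 1 strain, 1 sex and 1 age, and the ethanol was drunk by the mother, so the dose that reached each pup is not recorded in the labels.

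Mitochondria keep a small genome of their own, and the few proteins that it encodes, all subunits of the respiratory chain and of the ATP synthase, are made by a ribosome inside the organelle. That ribosome has a large and a small subunit. Its RNAs come from mitochondrial DNA, but all of its proteins are encoded in the nucleus, made in the cytosol and imported. Many of them descend from bacterial ribosomal proteins, and the others were added in the course of mitochondrial evolution. In humans, inherited defects of several of these proteins impair oxidative phosphorylation, and the brain is among the organs most often affected.

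By their published positions, 50 of the 77 genes encode large-subunit proteins, 31 with a bacterial homologue and 19 specific to mitochondria, and 26 encode small-subunit proteins, 16 with a bacterial homologue and 10 specific to mitochondria. Mrps30 and Mrps18a, named as small-subunit proteins, are counted with the large subunit, where they sit. Mrps36 keeps its symbol for historical reasons: its product is a subunit of the alpha-ketoglutarate dehydrogenase complex, an enzyme of the citric acid cycle, and it is counted apart. All 77 genes lay above the 25th percentile of the mean signal of all probe sets tested, and 69 lay above the median.

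The values are deposited log2 expression levels from Affymetrix whole-transcript arrays. The 10 arrays had medians between 6.99 and 7.05, and their values correlated at 0.989 to 0.996. For every probe set the mean of experiment 1 equalled that of experiment 2 to within 5.83e-05, so a level cannot be compared between the experiments and each comparison is made within one. Neuronal markers were high on all arrays (Snap25 13.2 to 13.4, Syt1 12.9 to 13.1), as a whole-brain label implies. Shared litters among the pools are neither stated nor denied in the labels, and the p-values reflect only how much the pools varied.

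Most of the mitochondrial ribosomal protein genes had lower means on the ethanol arrays, by small amounts. These were 52 of 77 (67.5%) in experiment 1, beside 51.8% of all probe sets, and 68 of 77 (88.3%) in experiment 2, beside 54.9%. Of the probe sets above the median of mean signal, where 69 of the 77 genes lay, 68.9% and 72.1% were lower. No gene passed Benjamini-Hochberg adjustment over the 21789 probe sets tested (limma, adjusted p under 0.05): 0 of the 77 genes and 0% of all probe sets, in either experiment and in both together. The counts below are therefore counts of unadjusted p under 0.05, set beside the share of all probe sets that reach it in the same direction, and no single gene is called changed.

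For 3 of the 4 genes first described below, lower values came with the smallest unadjusted p over both experiments, and the fourth, Mrps12, was the 1 gene of the 77 with an unadjusted p under 0.05 and a higher value. Their promoters are shown so that a reader can see the sequence in front of these genes, which were chosen by p and not by the size of the difference. The sequences are the 100 bases before the RefSeq transcription start in mouse assembly GRCm38.p6, read 5′ to 3′ on the gene's strand, and capitals mark a match to 1 of 3 motifs. The motifs are GCGCATG, the core of the site of nuclear respiratory factor 1, CCGGAAG, the core bound by ETS family factors such as GABP, and CCAAT, the site of NF-Y. All 3 were searched on both strands, and none of them contains another. Both nuclear respiratory factor 1 and GABP are known regulators of nuclear genes for mitochondrial proteins.
Mrpl42: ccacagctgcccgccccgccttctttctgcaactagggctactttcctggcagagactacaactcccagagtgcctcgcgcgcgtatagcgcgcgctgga
Mrps22: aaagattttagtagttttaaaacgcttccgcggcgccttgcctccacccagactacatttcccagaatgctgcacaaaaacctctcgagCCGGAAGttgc
Mrps14: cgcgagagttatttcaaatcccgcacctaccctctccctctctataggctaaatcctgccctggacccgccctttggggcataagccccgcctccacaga
Mrps12: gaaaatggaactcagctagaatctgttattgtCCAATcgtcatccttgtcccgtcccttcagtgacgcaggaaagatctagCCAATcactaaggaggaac
They lie at chr10:95501950-95502049 on the minus strand (Mrpl42), chr9:98601680-98601779 on the minus strand (Mrps22), chr1:160195115-160195214 on the plus strand (Mrps14) and chr7:28741822-28741921 on the minus strand (Mrps12). Of these stretches, that of Mrps22 holds an ETS core just before the start, that of Mrps12 holds 2 CCAAT boxes, and those of Mrpl42 and Mrps14 hold none of the 3 motifs. Within the wider window of 250 bases before to 50 bases after the start, RefSeq promoter sequences were matched for 68 of the 77 genes (74 windows). In that window Mrps12, like Mrps22, held an ETS core, Mrpl42 held CCAAT, and Mrps14 again held none of the 3 motifs. The ETS core was found in 25 of these 74 windows (33.8%), against 8.86% of all 32851 promoter windows. The nuclear respiratory factor 1 core was found in 8 (10.8%, against 3.91%), and CCAAT in 29 (39.2%, against 37.4%). The 25 genes with an ETS core had a median difference of 0.032 in experiment 1 and -0.102 in experiment 2, and the 43 genes without one had medians of -0.057 and -0.114. A match says only that the letters are present in the window.

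Experiment 1 asked whether the genes differed between offspring of ethanol-drinking and water-drinking dams, with 2 arrays a group. The differences were small and mixed in direction. Of the 77 genes, 52 (67.5%) had lower means on the ethanol arrays, beside 51.8% of all probe sets. The median difference was -0.031 log2 units, beside -0.005 for all probe sets. Lower values at an unadjusted p under 0.05 were found for 3 genes, beside 4.93% of all probe sets, and higher values for 0 genes, beside 4.02% (limma). These 3 are 3.90% of the 77 genes, close to the share among all probe sets. They were Mrpl42, a large-subunit protein specific to mitochondria (-0.45 ± 0.14, the difference with its standard error), Mrpl1, the homologue of bacterial L1 at the side of the ribosome where spent tRNA leaves (-0.19 ± 0.079), and Mrps22, a mitochondria-specific protein of the small subunit (-0.17 ± 0.069). Every ethanol array lay below every control array for 21 genes (27.3%, beside 19.2% of all probe sets) and above it for 6 genes (7.79%, beside 15.1%).

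The next genes by p in experiment 1 included some on either side of 0. Mrps10, homologue of a small-subunit protein of bacteria, read 7.01 and 7.29 on the experiment 1 ethanol arrays, against 7.51 and 7.44 on the control arrays. Both ethanol arrays were below both control arrays, replicate 1 by the wider margin. Its difference was -0.33 ± 0.17 (limma, unadjusted p = 0.0796). Mrpl55, counted as the homologue of bacterial L31, had 8.96 and 8.83 on the experiment 1 ethanol arrays, against 8.79 and 8.74 on the control arrays. It was higher on both ethanol arrays, by 0.14 ± 0.075 (unadjusted p = 0.0924). Leaving out 1 array of experiment 1 in turn, which left 1 array in a group, moved the median to between -0.065 and 0.002.

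In experiment 2, with 3 arrays a group, 68 of the 77 genes had lower means on the ethanol arrays, and the median difference was -0.120, beside -0.011 for all probe sets and a share of 54.9% lower. Lower values at an unadjusted p under 0.05 were found for 25 genes, beside 6.19% of all probe sets, and higher values for 0 genes, beside 3.78% (limma). The 25 genes are 32.5% of the 77. Every ethanol array lay below every control array for 31 genes (40.3%, beside 11.6%), and every ethanol array above every control array for 0 genes (beside 7.62%). None of the 25 passed adjustment over all probe sets, the smallest adjusted p among them being 0.311.

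The 6 genes with the smallest p in experiment 2 came from both subunits, and 1 of them, Mrpl42, is described with both experiments below. Mrps14, homologue of bacterial S14 in the head of the small subunit, read 7.96, 7.81 and 7.89 on the experiment 2 ethanol arrays, against 8.28, 8.10 and 8.33 on the control arrays. All 3 ethanol arrays were below all 3 control arrays, and the difference was -0.35 ± 0.090 (limma, unadjusted p = 0.00246, adjusted p = 0.311). Mrpl11, homologue of bacterial L11 at the base of the stalk where translation factors bind, read 9.04, 9.05 and 8.97 on the experiment 2 ethanol arrays, against 9.30, 9.19 and 9.21 on the control arrays. Its groups did not overlap, and it differed by -0.21 ± 0.056. Mrpl16, homologue of the bacterial protein L16, had 8.94, 8.93 and 8.90 on the experiment 2 ethanol arrays, against 9.12, 9.13 and 9.05 on the control arrays. The ethanol arrays again lay below all control arrays, at -0.18 ± 0.049.
Mrpl50, specific to mitochondria, had 9.40, 9.26 and 9.30 on the experiment 2 ethanol arrays, against 9.51, 9.50 and 9.55 on the control arrays, a difference of -0.20 ± 0.054 with no overlap. Mrpl52, a further mitochondria-specific protein of the large subunit, had 8.30, 8.31 and 8.05 on the experiment 2 ethanol arrays, against 8.59, 8.53 and 8.37 on the control arrays. Ethanol replicate 3 was far below the other ethanol arrays, and all 3 were below the lowest control array (difference -0.27 ± 0.085). Mrpl46, a protein of the central protuberance, had 7.79, 8.05 and 7.98 on the experiment 2 ethanol arrays, against 8.29, 8.47 and 8.13 on the control arrays, and differed by -0.36 ± 0.11. The other genes with an unadjusted p under 0.05 were Mrpl1, Mrpl9, Mrpl13, Mrpl15, Mrpl27, Mrpl35, Mrpl36, Mrpl42, Mrpl47, Mrpl58, Mrps17, Mrps18b, Mrps22, Mrps25, Mrps30, Mrps31, Mrps33, Mrps34 and Mrps35, each with a difference between -0.42 and -0.12. Among them Mrpl58 is a peptidyl-tRNA hydrolase that has become part of the large subunit.

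The lower quartile of the values of a whole array also separated the groups. In experiment 2 it was 5.85, 5.85 and 5.87 on the ethanol arrays, against 5.80, 5.81 and 5.83 on the control arrays. In experiment 1 it was 5.86 on either ethanol array, against 5.78 and 5.83 on the control arrays. With it as a covariate, the count in experiment 2 was 5 genes lower and 1 higher (beside 1.96% of all probe sets lower and 1.57% higher), and the median was -0.051. Because it separated the groups, the differences were estimated less precisely with it. The median standard error over all probe sets was 0.092 in experiment 2, beside 0.066 without it, and 0.093 beside 0.052 over both experiments. How much of the lower counts came from this was not tested. Centring each array on its median gave 42 genes lower (beside 12.3%) and a median of -0.159, and quantile normalization 22 genes lower (beside 6.71%) and a median of -0.104. With these scalings the share of lower values among all probe sets at an unadjusted p under 0.05 was 89.2% and 71.9%, beside 62.1% as deposited. The median of experiment 1 was 0.018 after quantile normalization and 0.071 with the covariate.

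**Figure D1:**
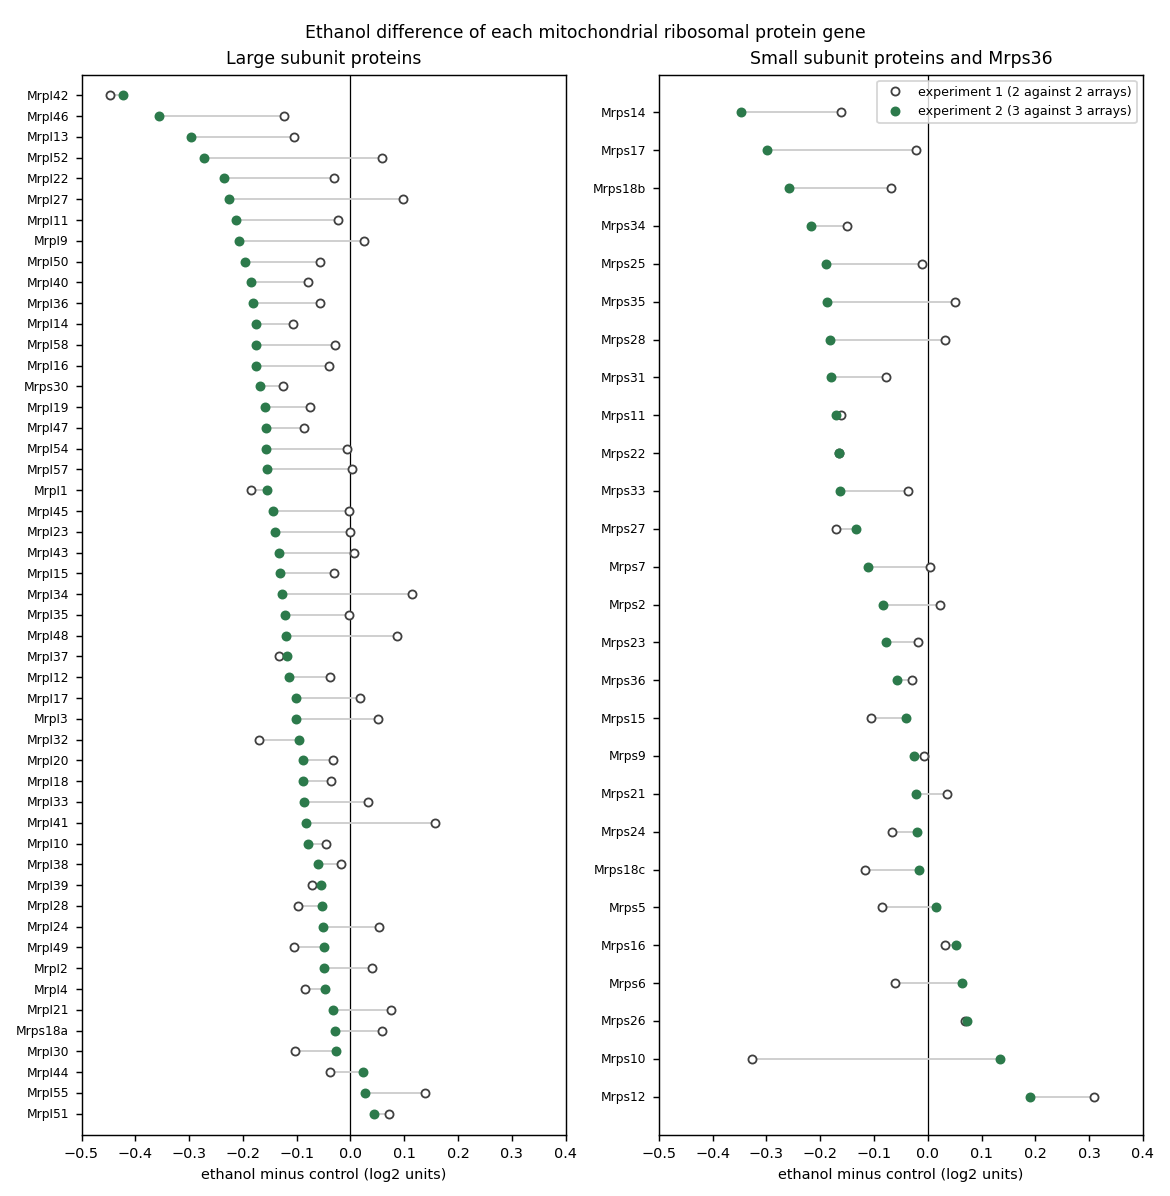
Difference of each of the 77 genes, ethanol minus control in log2 units (horizontal axis), with open circles for experiment 1, filled circles for experiment 2 and a grey line joining the circles of a gene. Genes are ordered by experiment 2; 68 filled and 52 open circles lie left of 0, and Mrpl42 and Mrps22 have nearly the same value in each experiment.

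Array by array, each gene was set against its mean on the control arrays of the same experiment. On the ethanol arrays of experiment 2 the medians of the 77 deviations were -0.079, -0.120 and -0.131, against 0.038, 0.0001 and -0.045 on the control arrays. All 3 ethanol arrays lay below all 3 control arrays. On the ethanol arrays 68, 65 and 70 genes were below the control mean, against 20, 38 and 58 on the control arrays. In experiment 1 the medians were -0.065 and 0.002 on the ethanol arrays, against 0.032 and -0.032 on the control arrays. There ethanol replicate 2 lay between the control arrays, and 55 and 38 genes were below the control mean on the ethanol arrays, against 21 and 56 on the control arrays. Of the ethanol arrays of experiment 1, replicate 1 alone had a median below both control arrays.

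**Figure D2:**
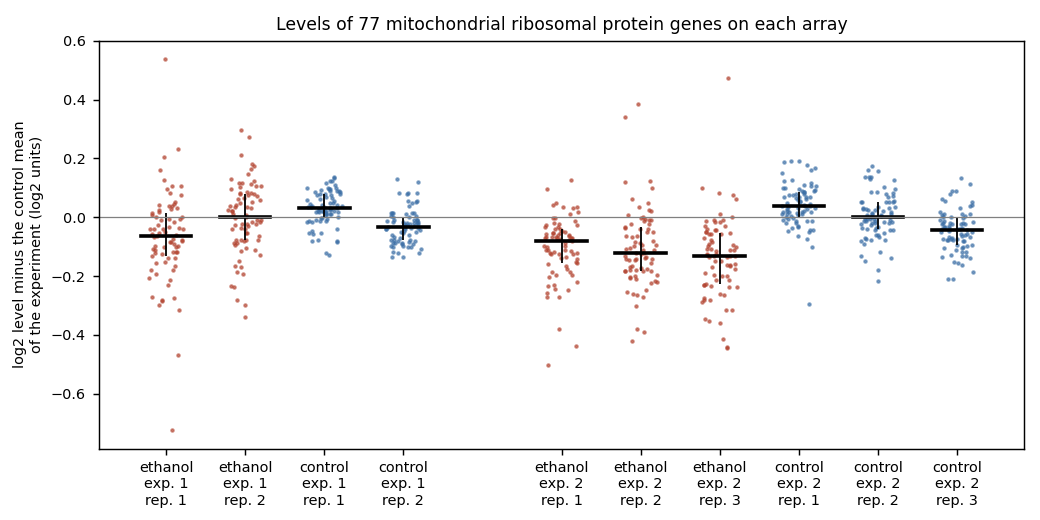
Deviation of each of the 77 genes from its control mean of the same experiment, in log2 units (vertical axis), on each array, with ethanol arrays in red left of control arrays in blue. Points are genes, thick bars the medians and thin lines the 25th to 75th percentiles; the medians of the 3 ethanol arrays of experiment 2 lie at -0.079 to -0.131.

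Setting the experiments side by side, 48 genes were lower in both, 5 were higher in both (Mrps12, Mrps16, Mrps26, Mrpl51 and Mrpl55), 20 were higher in experiment 1 and lower in experiment 2, and 4 the reverse (Mrps5, Mrps6, Mrps10 and Mrpl44). The experiments share no arrays. Every ethanol array was below every control array in both experiments for 9 genes (11.7%, beside 2.82% of all probe sets): Mrpl16, Mrpl37, Mrpl42, Mrpl47, Mrpl50, Mrps22, Mrps30, Mrps31 and Mrps34. The reverse held for 0 genes (beside 1.47%).

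Over both experiments 67 of the 77 genes were lower on the ethanol arrays, and the median difference was -0.077, beside -0.008 for all probe sets. Lower values at an unadjusted p under 0.05 were found for 20 genes (26.0%), beside 7.68% of all probe sets, and a higher value for 1 gene, beside 4.72% (limma). The smallest adjusted p of any of them was 0.215, for Mrpl42. Without ethanol replicate 2 of experiment 1 the counts were 32 genes lower and 1 higher, beside 9.14% and 6.57% of all probe sets. With the array lower quartile as a covariate they were 6 lower and 1 higher, beside 1.67% and 1.35%, and the median was -0.018.

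Mrpl42 had the largest difference of the 77 genes. Its levels were 6.99 and 7.54 on the experiment 1 ethanol arrays, against 7.69 and 7.72 on the control arrays. In experiment 2 they were 7.26, 7.31 and 7.26 on the ethanol arrays, against 7.77, 7.55 and 7.78 on the control arrays. All 5 ethanol arrays were below all control arrays of their experiment, with the narrowest gap at ethanol replicate 2 of experiment 1. The difference was -0.43 ± 0.085 over both experiments, a fold of 1.35 (limma, unadjusted p = 0.000226, adjusted p = 0.215).

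Mrps22, whose loss of function in humans causes a combined oxidative phosphorylation deficiency, had a smaller and more even difference. It read 8.996 and 8.86 on the experiment 1 ethanol arrays, against 9.05 and 9.14 on the control arrays. In experiment 2 it read 8.94, 8.88 and 8.97 on the ethanol arrays, against 9.08, 9.13 and 9.08 on the control arrays. The groups did not overlap in either experiment, and its difference was -0.17 in experiment 1 and -0.17 in experiment 2 (-0.17 ± 0.043 over both, adjusted p = 0.306). Mrps14 read 8.10 and 7.86 on the experiment 1 ethanol arrays, against 8.01 and 8.27 on the control arrays, where the groups overlapped, unlike in experiment 2. Over both experiments it differed by -0.27 ± 0.072 (adjusted p = 0.306).

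Mrps34 and Mrps31, mitochondria-specific proteins of the small subunit, and Mrps30, Mrpl50 and Mrpl47 of the large subunit were also free of overlap in both experiments. Mrps34, mutated in human Leigh syndrome, read 7.27 and 7.40 on the experiment 1 ethanol arrays, against 7.55 and 7.42 on the control arrays. It read 7.26, 7.36 and 7.28 on the experiment 2 ethanol arrays, against 7.53, 7.65 and 7.38 on the control arrays, and in each experiment the lowest control array was just above the highest ethanol array. The difference was -0.19 ± 0.056 over both experiments. Mrps30 differed by -0.15 ± 0.048, Mrpl50 by -0.14 ± 0.045, Mrps31 by -0.14 ± 0.045 and Mrpl47, the homologue of bacterial L29 beside the mouth of the exit tunnel, by -0.13 ± 0.046. For each of these the adjusted p lay between 0.306 and 0.334.

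Mrpl1 read 9.10 and 8.99 on the experiment 1 ethanol arrays, against 9.24 and 9.22 on the control arrays, with no overlap. In experiment 2 it read 9.16, 9.04 and 8.99 on the ethanol arrays, against 9.21, 9.13 and 9.30 on the control arrays, and 1 ethanol array exceeded the lowest control array. Mrpl46 differed by -0.26 ± 0.089, Mrpl16 by -0.12 ± 0.042 and Mrpl11 by -0.14 ± 0.050 over both experiments.

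Mrps12, homologue of bacterial S12 at the decoding centre of the small subunit, had higher means on the ethanol arrays. Its levels were 7.48 and 7.03 on the experiment 1 ethanol arrays, against 6.91 and 6.99 on the control arrays. In experiment 2 they were 7.13, 7.39 and 7.07 on the ethanol arrays, against 7.01, 7.14 and 6.87 on the control arrays. The ethanol arrays were above the control arrays in experiment 1 and overlapped them in experiment 2, where 1 ethanol array stood out as high. The difference was 0.24 ± 0.088 over both experiments (limma, unadjusted p = 0.0186, adjusted p = 0.342).

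**Figure D3:**
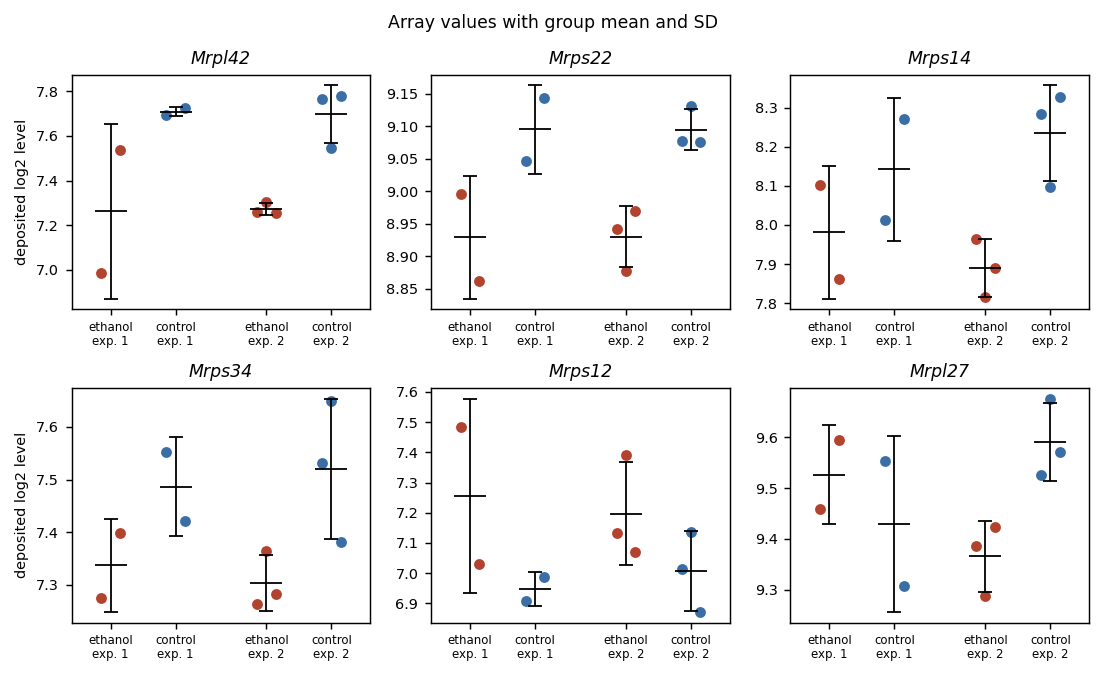
Deposited log2 levels of Mrpl42, Mrps22, Mrps14, Mrps34, Mrps12 and Mrpl27 (vertical axes, each with its own range) on the ethanol arrays (red) and control arrays (blue) of each experiment, with horizontal bars at the group mean and error bars of 1 SD (n = 2 a group in experiment 1 and 3 in experiment 2). The groups of Mrpl42, Mrps22 and Mrps34 do not overlap in either experiment, and Mrps12 is higher on most ethanol arrays.

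The experiments were also compared directly, as the difference of experiment 2 minus that of experiment 1. It was below 0 for 57 genes, with a median of -0.101, beside -0.008 for all probe sets. An unadjusted p under 0.05 was reached below 0 by 4 genes (5.19%), beside 3.24% of all probe sets, and above 0 by 0 genes, beside 3.33% (limma). The 4 were Mrpl27, Mrpl52, Mrpl48 and Mrpl9, with adjusted p from 0.701 to 0.759. Leaving out 1 array in turn, which in experiment 1 left 1 array in a group, moved the median to between -0.125 and -0.056. That the genes were lower at a small p more often in experiment 2 is therefore not shown gene by gene to be a difference between the experiments.

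Large-subunit genes had a median of -0.031 in experiment 1 and -0.124 in experiment 2, where 47 of 50 were lower, and 16 of them at an unadjusted p under 0.05. Small-subunit genes had medians of -0.048 and -0.097, with 20 of 26 lower in experiment 2, and 9 of them at that p. Within the small subunit, the 10 mitochondria-specific genes had a median of -0.172 in experiment 2, and 7 of them were lower at an unadjusted p under 0.05. The 16 small-subunit genes with a bacterial homologue had a median of -0.024, and 2 did so. In experiment 1 the corresponding medians were -0.052 and -0.041. In the large subunit the 19 mitochondria-specific and 31 bacterial-type genes had medians of -0.144 and -0.114 in experiment 2. Of all probe sets, 54.9% were lower in experiment 2, and 6.19% were lower at an unadjusted p under 0.05 (limma). The latter share was 11.6% in the third quartile of mean signal and 7.14% in the top one. The gaps between the subunits, and between mitochondria-specific and bacterial-type genes, were not tested.

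By position, all 7 genes of the exit tunnel, all 6 of the central protuberance and all 3 of the stalk were lower over both experiments. The same held for 87.0% of the 77 genes, 54.4% of all probe sets and 77.4% of those above the median of mean signal. The medians were -0.084, -0.082 and -0.083 in that order. With 1 array left out in turn, the experiment 1 median ran from -0.101 to 0.077 in the tunnel. It ran from -0.084 to 0.086 in the protuberance and from -0.061 to -0.028 in the stalk. In the stalk, Mrpl12, the counterpart of the bacterial protein that recruits translation factors, differed by -0.083 ± 0.044. In the tunnel Mrpl23 differed by -0.084 ± 0.055, and in the protuberance Mrpl40 by -0.14 ± 0.069. The 4 genes of the decoding site and mRNA channel, which include Mrps12 and Mrps2 (-0.040 ± 0.044), had a median of -0.031 over both experiments, with 3 of the 4 lower, and of -0.002 in experiment 2. Of 16 genes whose human counterparts are known disease genes, 14 were lower in experiment 2, with a median of -0.106 and 5 at an unadjusted p under 0.05 (31.3%). That share is near the 32.5% of all 77 genes, and 6.19% of all probe sets were lower at that p.

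Mammals have 3 Mrps18 genes, whose products occupy different places in the ribosome: Mrps18a in the large subunit, Mrps18c at the site of bacterial S18, and Mrps18b elsewhere on the small subunit. Mrps18b read 8.87, 8.72 and 8.94 on the experiment 2 ethanol arrays, against 9.21, 9.07 and 9.03 on the control arrays, with no overlap and a difference of -0.26 ± 0.089. Its groups overlapped in experiment 1 (-0.068). Mrps18a differed by 0.0063 ± 0.057 over both experiments (95% interval -0.12 to 0.13), and its sign turned with the scaling (-0.021 after median centring). Mrps18c differed by -0.056 ± 0.051 (-0.17 to 0.054). Mrps36, the dehydrogenase subunit, differed by -0.046 ± 0.051 (-0.16 to 0.064).

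For the 8 genes with another probe set, the probe sets had differences of opposite sign over both experiments in 3. Mrpl51, a mitochondria-specific protein, differed by 0.055 with the probe set used and by -0.12 with the other. Mrpl47 differed by -0.13 with the one used and by 0.016 with the other, whose mean level of 5.05 lay below the lower quartile of every array. Mrpl41 differed by 0.013 and -0.027, and was below 0 after median centring (-0.014). For Mrpl23, Mrpl27, Mrps5, Mrps33 and Mrps36 the signs were the same, and both probe sets of Mrps33 were lower (-0.11 with the one used, -0.15 with the other).

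Signal strength moved with the ethanol difference across the whole array. In the third quartile of mean signal, all probe sets had a median difference of -0.050 in experiment 2, against 0.013 in the second. Most of the genes, 44, lay in the third quartile, where their median was -0.150 in experiment 2 and 40.9% were lower at an unadjusted p under 0.05, beside 11.6% of all probe sets there. In the top quartile (25 genes) the median was -0.102, beside -0.041, and 28.0% were lower at that p, beside 7.14%. In experiment 1 the medians of these quartiles were not below those of all probe sets: -0.031 beside -0.054 in the third and -0.036 beside -0.036 in the top one. The 8 genes of the second quartile had medians of 0.0003 and -0.004.

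**Figure D4:**
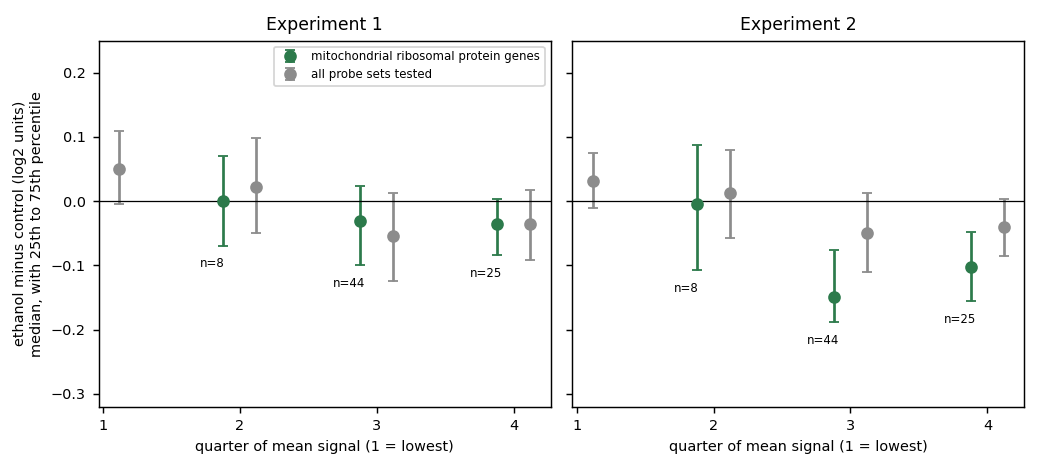
Median difference, ethanol minus control in log2 units (vertical axis), by quartile of mean signal (horizontal axis, 1 the lowest), for the mitochondrial ribosomal protein genes in green and all probe sets tested in grey, with bars from the 25th to the 75th percentile. In experiment 2 the green medians lie at -0.150 in the third and -0.102 in the top quartile, below the grey ones at -0.050 and -0.041; in experiment 1 they lie close together.

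Among genes that work with the mitochondrial ribosome, the lists below were taken as wholes. Over both experiments 54.4% of all probe sets were lower, and 77.4% of those above the median of mean signal. Its 4 measured proteins with other symbols were all lower over both experiments: Ptcd3, a pentatricopeptide repeat protein of the small subunit (-0.16 ± 0.048), Gadd45gip1 of the large subunit (-0.11 ± 0.065), Chchd1, a small-subunit protein (-0.068 ± 0.058) and Dap3, a GTP-binding protein of the small subunit (-0.067 ± 0.044). Of 26 assembly and rRNA modification genes, 20 were lower over both experiments, and 6 of them at an unadjusted p under 0.05 (23.1%, beside 7.68% of all probe sets). They include Gtpbp10, a GTPase of large-subunit assembly (-0.25 ± 0.066), Mettl15, a methyltransferase of the small-subunit rRNA (-0.20 ± 0.053), Rbfa, a small-subunit assembly factor (-0.15 ± 0.052), and Mterf3 (-0.12 ± 0.042). Their median was -0.005 in experiment 1 and -0.065 in experiment 2.
All 16 translation factors were lower over both experiments, beside 54.4% of all probe sets. Of these, 3 were lower at that p (18.8%, beside the same 7.68%), and the medians were -0.052 and -0.059. Tufm, the elongation factor that brings aminoacyl-tRNA to the ribosome, differed by -0.13 ± 0.046, Guf1, a ribosome-bound GTPase, by -0.15 ± 0.053, the release factor Mtrf1l by -0.10 ± 0.047, and the initiation factor Mtif3 by -0.093 ± 0.048.

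Genes of mitochondrial tRNA charging were lower in experiment 2 for 10 of 19, beside 54.9% of all probe sets. Of these 19 genes, 13 were lower over both experiments, beside 54.4% of all probe sets. At an unadjusted p under 0.05, 2 of them were lower (10.5%, beside 7.68% of all probe sets). A higher value at that p was found for 1 (5.26%, beside 4.72%). The 2 experiments had medians of -0.031 and -0.008. Qrsl1, which makes glutaminyl-tRNA by amidation, differed by -0.15 ± 0.044, the tyrosyl-tRNA synthetase Yars2 by -0.12 ± 0.043, the alanyl-tRNA synthetase Aars2 by -0.091 ± 0.046 and the methionyl-tRNA synthetase Mars2 by 0.16 ± 0.061. Of 15 regulators of mitochondrial transcription and biogenesis, 0 reached that p in either direction over both experiments, beside 7.68% lower and 4.72% higher. Of the 15, 13 were lower, beside 54.4% of all probe sets. They include the transcription factor Tfb2m (-0.12 ± 0.061), the coactivators Ppargc1b (-0.12 ± 0.064) and Pprc1 (-0.10 ± 0.062), and the elongation factor Tefm (-0.082 ± 0.061). With the array lower quartile as a covariate, Gadd45gip1, Tfb2m, Ppargc1b and Tefm were above 0. Mitochondrially encoded genes had 0 probe sets in the annotation used, so the products of the organelle's own translation were not measured.

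Other ribosomal and mitochondrial genes stood closer to 0. The 59 cytosolic ribosomal protein genes had medians of 0.024 in experiment 1 and -0.029 in experiment 2. There 2 (3.39%) were lower at an unadjusted p under 0.05, beside 6.19% of all probe sets. The 80 nuclear genes of respiratory chain and ATP synthase subunits had medians of -0.002 and -0.060. Of these, 7 (8.75%) were lower at that p in experiment 2, near the same 6.19%. For the 77 mitochondrial ribosomal protein genes the values were -0.031 and -0.120, and 25 (32.5%). These are descriptions, and the gaps between the lists were not tested.

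**Figure D5:**
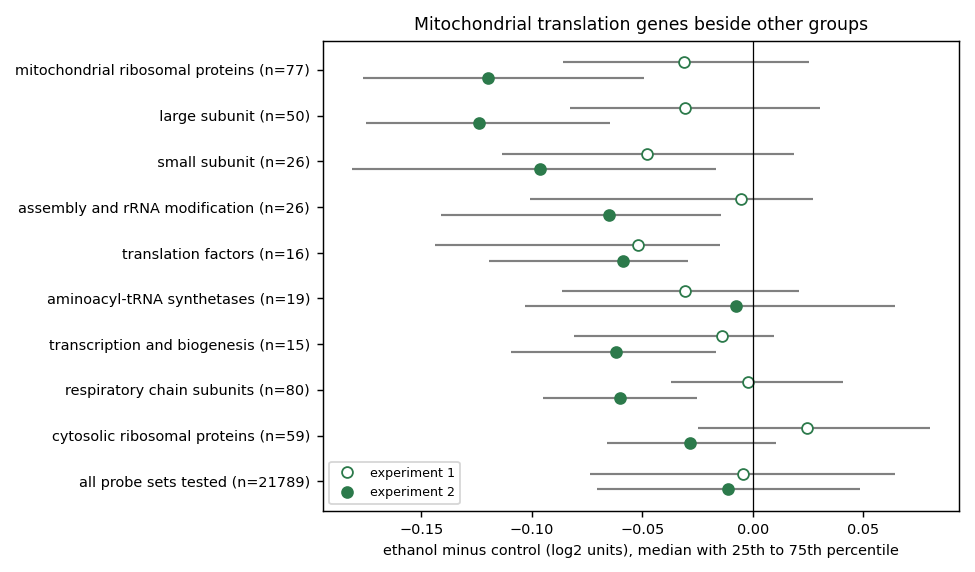
Median difference, ethanol minus control in log2 units (horizontal axis), with lines from the 25th to the 75th percentile, for the mitochondrial ribosomal protein genes, related gene lists and all probe sets tested (rows, with the number of genes), open circles for experiment 1 and filled circles for experiment 2. The filled circle of the mitochondrial ribosomal proteins lies at -0.120, that of respiratory chain subunits at -0.060 and that of cytosolic ribosomal proteins at -0.029.

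Several marker lists of brain regions and cell types also had different means in the groups, and whether a gene is lower because fewer cells of a type were present or because each held less of its RNA cannot be told apart in whole-brain pools. All 8 choroid plexus markers were lower in experiment 2 (median -0.308), where their mean log2 level was 8.17 to 8.33 on the ethanol arrays, against 8.46 to 8.59 on the control arrays. In experiment 1 it was 8.35 to 8.40 on the ethanol arrays, against 8.40 to 8.42 on the control arrays (5 of 8 lower, median -0.041). All 8 cerebellar markers were lower in both experiments (medians -0.334 and -0.142), with mean levels of 9.96 to 10.41 on the ethanol arrays, against 10.52 to 10.55 on the control arrays of experiment 1. In experiment 2 these levels were 10.09 to 10.41 on the ethanol arrays, against 10.36 to 10.55 on the control arrays. The median deviations from the control mean in experiment 2 were -0.054, 0.004 and -0.328 on the ethanol arrays, so that replicate 3 was lowest. Leaving out 1 array in turn moved the median to between -0.568 and -0.135 in experiment 1 and between -0.200 and -0.036 in experiment 2.
Microglial markers were lower in experiment 2 (3 of 4, median -0.141) and not in experiment 1 (0 of 4 lower, median 0.029). Astrocyte markers had medians of -0.109 in experiment 2 (4 of 4 lower) and -0.037 in experiment 1. The 4 neuronal markers had medians of 0.033 in experiment 1 and 0.013 in experiment 2. The 7 anterior pituitary markers had medians of 0.492 in experiment 1 and 0.478 in experiment 2. Their mean levels were 7.23 to 8.10 on the ethanol arrays of experiment 1, against 5.63 to 5.77 on its controls. In experiment 2 they were 6.23 to 8.68 on the ethanol arrays, against 6.14 to 6.57 on the control arrays. There the median deviations were -0.064, 1.30 and -0.019 on the ethanol arrays, so that replicate 2 alone was high, and leaving out 1 array in turn moved the median to between -0.042 and 0.726. The oligodendrocyte markers Mbp, Mobp and Mog differed by 0.045, 0.053 and -0.049 in experiment 1 and by -0.012, -0.004 and -0.166 in experiment 2. Alas2, the blood marker measured, differed by 0.174 in experiment 1 and -0.032 in experiment 2. The part of all these marker differences in the lower values of the mitochondrial ribosomal protein genes was not tested.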

How the data were processed

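Whole-brain RNA of 10 pools was hybridized to 10 Affymetrix arrays. The authors deposited 1 table of log2 expression values for 35556 probe sets. The submitters' processing notes name Partek 6.6; background correction and normalization: not given in the sources used here. A difference between the experiments had been removed per probe set before deposit. Array titles gave the groups and replicate numbers.

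Of 23410 annotated probe sets, 21789 carried 1 symbol and were tested; 1621 carried several, 1 of which includes a mitochondrial ribosomal protein symbol, and were not named. limma 3.58.1 in R 4.3.3 (lmFit, eBayes) fitted a mean per experiment and treatment, or experiment plus treatment for both experiments together. P-values were adjusted over all tested probe sets (Benjamini-Hochberg, 0.05). Errors after ± are standard errors. The number of arrays limits the precision. Figures were drawn with matplotlib 3.10.9.

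The members, lists, positions, motifs and alternatives were chosen with earlier results of these data known. Genes were named by rule: the 12 smallest p over both experiments among those of 1 sign, the 6 smallest in each experiment and for the difference between them, 2 of each role group, the Mrps18 genes, those whose probe sets disagreed in sign, up to 6 without overlap in either experiment, and 4 of each related list. The other genes of experiment 2 at an unadjusted p under 0.05, and those counted by sign or overlap, are listed to make up their count. Promoter sequences are from RefSeq (GRCm38.p6).

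On simulated data for 21789 genes, of 50 genes changed by 0.25 log2 units the test called 5 in experiment 1, 8 in experiment 2 and 23 over both. Of 50 changed by 0.5 it called 44, 47 and 50. Each run held 50 genes changed by each of 0.25, 0.5, 1 and 2 log2 units, with independent normal noise and no shift shared across an array. Strongly changed genes loosen the adjusted threshold, and in the data 0 probe sets passed it. The simulated counts therefore do not give the share of real changes of these sizes that would have passed. Alternatives were other scalings, filters, variance priors, weights, a covariate, a replicate block and each array left out. Replicate numbers did not pair the arrays: deviations of same-numbered arrays correlated at -0.052 in experiment 1, and at 0.006, -0.146 and 0.230 in experiment 2.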

Additional observations from a re-analysis of the deposited data

Results flagged for a closer look

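In 4 genes, all of the large subunit, the ethanol difference itself differed between the experiments at an unadjusted p under 0.05 (limma, experiment 2 minus experiment 1). It was -0.32 for Mrpl27, homologue of a bacterial protein near the peptidyl transferase centre (limma, unadjusted p = 0.019), and -0.33 for Mrpl52 (unadjusted p = 0.031). It was -0.21 for Mrpl48, a protein of the central protuberance (limma, unadjusted p = 0.044), and -0.23 for Mrpl9 (unadjusted p = 0.045). In each the mean was higher on the ethanol arrays of experiment 1 and lower on those of experiment 2. None passed adjustment over all probe sets (adjusted p 0.701 to 0.759), and the 4 are 5.19% of the 77 genes, beside 3.24% of all probe sets.

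Mrpl27 read 9.46 and 9.60 on the experiment 1 ethanol arrays, against 9.55 and 9.31 on the control arrays. In experiment 2 it read 9.39, 9.29 and 9.42 on the ethanol arrays, against 9.53, 9.68 and 9.57 on the control arrays. The groups overlapped in experiment 1 and did not in experiment 2. Its other probe set differed by -0.14 in experiment 1 and -0.23 in experiment 2, a difference between experiments of -0.097 (limma, unadjusted p = 0.479), so the small p was found with 1 of its probe sets. With 2 or 3 arrays a group, single arrays were not tested as outliers.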

How the results depend on the processing

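Over the alternatives, 255 of the recomputed summary counts and medians stayed close to the values reported and 27 moved. A count was taken as close within a factor of 1.5. A median was taken as close within 0.039 log2 units, the SD between arrays of the median over the 77 genes. A median near 0 could therefore change sign and still be taken as close. In none of the alternatives did any of the 77 genes pass adjustment. The unchanged counts of genes past adjustment are among the 255, which is therefore not a measure of stability. Experiment 2 gave 42 genes at an unadjusted p under 0.05 (median -0.159) after median centring, beside 12.3% of all probe sets lower and 1.49% higher. It gave 38 with array weights (beside 9.13% lower and 5.91% higher). With the array lower quartile as a covariate it gave 6 (median -0.051), beside 1.96% and 1.57%. That covariate gave 7 genes (median -0.018) over both experiments, beside 1.67% lower and 1.35% higher. In experiment 1 it gave 9 (median 0.071), beside 2.35% lower and 2.77% higher. For the difference between experiments it gave 8, beside 4.01% below 0 and 3.44% above. In experiment 1 the count was 1 with array weights (beside 2.83% lower and 2.47% higher) and 5 with weights by mice per pool (6.95% and 5.42%). Quantile normalization turned the median of experiment 1 to 0.018. The difference between experiments gave 7 genes after quantile normalization (beside 4.02% below 0 and 2.79% above). It gave 1 with all probe sets (2.61% and 4.21%) and 1 with array weights (2.60% and 2.81%).

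Leaving out each array in turn gave 14 to 33 genes over both experiments (medians -0.089 to -0.057), 3 to 8 in experiment 1 (-0.065 to 0.002), 17 to 31 in experiment 2 (-0.141 to -0.087) and 0 to 15 for the difference between them (-0.125 to -0.056). The highest counts came without ethanol replicate 2 of experiment 1 (33 and 8) and without its replicate 1 (15). The count of 0 came without control replicate 2 of experiment 1.

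Small differences over both experiments changed sign. Mrps18a was -0.021 after median centring, -0.00904 with array weights and -0.040 to 0.036 with an array left out. Mrpl41 was -0.014 after median centring, -0.0068 as the mean of its probe sets, -0.037 with array weights and -0.052 to 0.069 with an array left out. Mrpl51 was -0.032 as the mean of its probe sets. With the lower-quartile covariate, Mrpl51 was -0.053, Mrpl23 0.029, Gadd45gip1 0.028, Tfb2m 0.017, Ppargc1b 0.032 and Tefm 0.068. The cause was not tested.

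Same-numbered arrays share only a number. A replicate block gave 21 genes over both experiments (beside 7.38% of all probe sets lower and 4.73% higher) and 2 in experiment 1 (5.03% and 4.26%). It gave 29 in experiment 2 (6.19% and 3.82%) and 4 for the difference (3.30% below 0 and 3.30% above), and changed no call.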
